A study of Homo sapiens with 16 samples.

Results

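The genes described here are 9 interferon-stimulated antiviral restriction factors, IFITM1, IFITM2, IFITM3, BST2, RSAD2, CMPK2, SAMHD1, SAMD9 and SAMD9L. Their H3K27ac was read from the rows of the deposited table that name one of these genes and lie within 50000 bp of its transcription start site (TSS). That rule gave 48 of 151654 regions, each a window of 1000 bp centred on an ATAC-seq peak. SAMHD1 had 16 of these regions, SAMD9L 10, IFITM3 5, BST2 4, RSAD2 4, CMPK2 3, SAMD9 3, IFITM2 2 and IFITM1 1. Of the 48 regions, 12 lay within 1000 bp of the TSS and 36 farther away. A further 10 regions named for these genes lay beyond 50000 bp and were left out. Because 18 of the 48 windows overlapped another one, the regions form 38 separate stretches, and overlapping windows share tags.

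Type I interferon binds its receptor, and the kinases of the receptor activate transcription factors that bind the interferon-stimulated response element (ISRE) in the promoters of its target genes. USP18 is itself induced by interferon. It removes the modifier ISG15 from proteins and, separately, holds back signalling at the receptor. The genes described here act against viruses at different steps. IFITM proteins block the fusion of viral and cellular membranes, BST2 (tetherin) holds budding virions at the cell surface, and RSAD2 (viperin) makes a modified nucleotide that ends viral RNA chains. CMPK2 is a mitochondrial nucleotide kinase encoded next to RSAD2, SAMHD1 breaks down the deoxynucleotides needed for reverse transcription, and SAMD9 and SAMD9L are neighbouring paralogues that restrict poxviruses. H3K27ac, acetylation of lysine 27 of histone H3, marks active promoters and enhancers, and its level is not a measure of RNA or protein.

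H3K27ac ChIP-seq came from THP-1 cells, a human monocytic leukemia line. Control cells (WT) expressed Cas9 alone, while USP18-/- cells were CRISPR edited and expanded from sorted single cells, so the genotype and the clone cannot be told apart. Each genotype was left untreated or was given IFNα for 6 h at 1000 U/ml, with 2 libraries in each of the 4 groups. The untreated libraries are labelled 0 h and none is labelled 6 h, so IFNα and time in culture cannot be told apart. The labels do not say that the replicates were separate cultures. The study describes its ChIP-seq replicates as biological. How the replicates were kept apart is not given in the labels, so p-values measure the spread between these libraries alone.

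The libraries held between 9046141 tags and 12935453.5 tags in the regions. WT libraries placed 36.1% to 37.3% of all tags in the regions and USP18-/- libraries 38.4% to 42.5%. The part of this gap in the genotype comparisons was not tested beyond the alternative scalings given with the results. Within groups, log2 levels correlated across regions with r between 0.958 and 0.965. At the promoter of USP18 (chr22:18149602-18150602), the targeted gene, the level was 7.85 and 7.62 CPM in untreated WT cells, 18.04 and 15.0 with IFNα, 8.20 and 8.47 in untreated USP18-/- cells and 49.2 and 41.7 with IFNα. A histone mark at a promoter does not check the edit itself. Of 9 myeloid markers, 8 had a promoter region, with means from 2.25 CPM at CSF1R to 92.0 CPM at SPI1 and a median of 10.8 CPM. Over all regions within 1000 bp of a TSS the median was 10.4 CPM. MPO had no promoter region. Of 8 markers of other cell types, COL1A1 alone had one, at a mean of 3.25 CPM.

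The ISRE core, read as GAAA, any 2 bases and again GAAA, was searched on both strands of every window in the hg38 sequence. A match lay in 5 of the 9 promoter regions, against 10.6% of all tested regions within 1000 bp of a TSS. Matches are shown from 9 windows that were called with IFNα in USP18-/- cells and are described below. Tested windows with a match that were not called are left out of the lines, namely those 6253 bp upstream of SAMHD1, with a log2 change of -0.11 in USP18-/- cells, and 7424 bp downstream and 8759 bp upstream of SAMD9L, with 0.26 and 1.21. The window 20403 bp downstream of SAMD9 also held a match and had too few counts to be tested. Each line gives a match in capitals with 10 bases on either side, 5′ to 3′ on the strand named.
IFITM1 promoter, chr11:313990-314019, plus strand: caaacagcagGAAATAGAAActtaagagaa
IFITM1 promoter, chr11:314024-314053, plus strand: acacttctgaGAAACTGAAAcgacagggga
IFITM3 promoter, chr11:320876-320905, minus strand: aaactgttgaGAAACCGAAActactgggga
IFITM3 promoter, chr11:320893-320922, minus strand: caaatgccagGAAAAGGAAActgttgagaa
BST2 promoter, chr19:17405735-17405764, minus strand: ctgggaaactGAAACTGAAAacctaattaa
RSAD2 promoter, chr2:6877622-6877651, minus strand: ttccacatgtGAAACTGAAAgttgaaacag
RSAD2 upstream, chr2:6872945-6872974, minus strand: aaatatgccaGAAACAGAAActgtttgtag
SAMHD1 intron, chr20:36950866-36950895, plus strand: attcagggagGAAACCGAAAcctaaaagcc
SAMD9 promoter, chr7:93118096-93118125, minus strand: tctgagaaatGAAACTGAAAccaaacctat
SAMD9L intron, chr7:93147649-93147678, minus strand: tgttcttcagGAAAACGAAActaacttgct
SAMD9L upstream, chr7:93165309-93165338, minus strand: cataaacctaGAAACTGAAAatctagatta

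In the promoters of IFITM1, IFITM3, RSAD2 and SAMD9 the matches lay within the central 200 bp of the window. In the BST2 promoter window 2 matches overlapped each other, with the match shown 347 bp from the centre. The promoter windows of IFITM2, CMPK2, SAMHD1 and SAMD9L held no match to these letters. Over all tested regions of the 9 genes, 13 of 43 (30.2%) held the ISRE core, against 17.1% of all tested regions. The median log2 fold change with IFNα in USP18-/- cells was 3.09 over those 13 and 0.15 over the other regions of these genes, and in WT cells the medians were 1.34 and 0.17. Among the 13, the RSAD2 windows and those 8759 and 17222 bp upstream of SAMD9L were tested only through libraries with IFNα. The RSAD2 windows at the TSS and 425 bp into the gene hold the same match. Windows selected in this way also lie among the other regions, so the gap between the medians is no test of the motif. An NF-κB consensus lay in 25.6% of the tested regions of these genes and in 23.1% of all tested regions, and the medians with and without it were 1.84 and 0.46 in USP18-/- cells and 0.60 and 0.23 in WT cells. These are descriptions of letters in a window, not of binding.

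Values below are counts per 1000000 counts of the library after TMM scaling (CPM). Every window spans 1000 bp, so width does not differ between genes. Repeated sequence and overlap with other promoters do differ and limit a comparison of levels between genes. Fold changes are log2 values from edgeR's quasi-likelihood test (QL), with p-values adjusted by the Benjamini-Hochberg method (BH) over 123276 tested regions. A region was called when it changed over 2-fold at an adjusted p under 0.05. Of the 48 regions, 43 had at least 10 counts in at least 2 libraries and were tested. The 5 others, 1 each at RSAD2, CMPK2 and SAMD9L and 2 at SAMD9, held between 1.5 and 11 tags per library. A region that is tested only because it is high after IFNα had to differ, so the counts of called regions describe the tested regions alone.

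IFNα raised H3K27ac at 7 of the 43 tested regions in WT cells and lowered none (edgeR QL), with 1 lower at an unadjusted p under 0.05. DESeq2 also called none lower. Over all tested regions, 0.344% were called higher and 0.0381% lower. All 7 lay within 1000 bp of a TSS, at IFITM1, IFITM3, RSAD2 with 2 overlapping windows, CMPK2, SAMD9 and SAMD9L. The median log2 fold change was 0.28 over the 43 regions and -0.01 over all regions. Without WT IFNα replicate 1, 4 regions were called. In USP18-/- cells the same treatment raised 20 of the 43 regions, in all 9 genes, against 7.14% of all tested regions, and lowered 3, against 4.28%. SAMHD1 is among the 9 through 2 overlapping windows at the fold minimum, which lost their calls under several other settings. Of the 20 higher regions, 9 lay over 1000 bp from the TSS. The RSAD2 windows among the 7 and the 20 were tested only through libraries with IFNα. So were the windows 17222 and 17594 bp upstream of SAMD9L among the 20. The 3 lower regions were all intergenic windows annotated to SAMHD1, between 17407 and 38170 bp upstream of its TSS, and 2 of them overlap. The annotation does not show that they act on SAMHD1. The median was 0.92, against -0.01 over all regions.

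**Figure D1:**
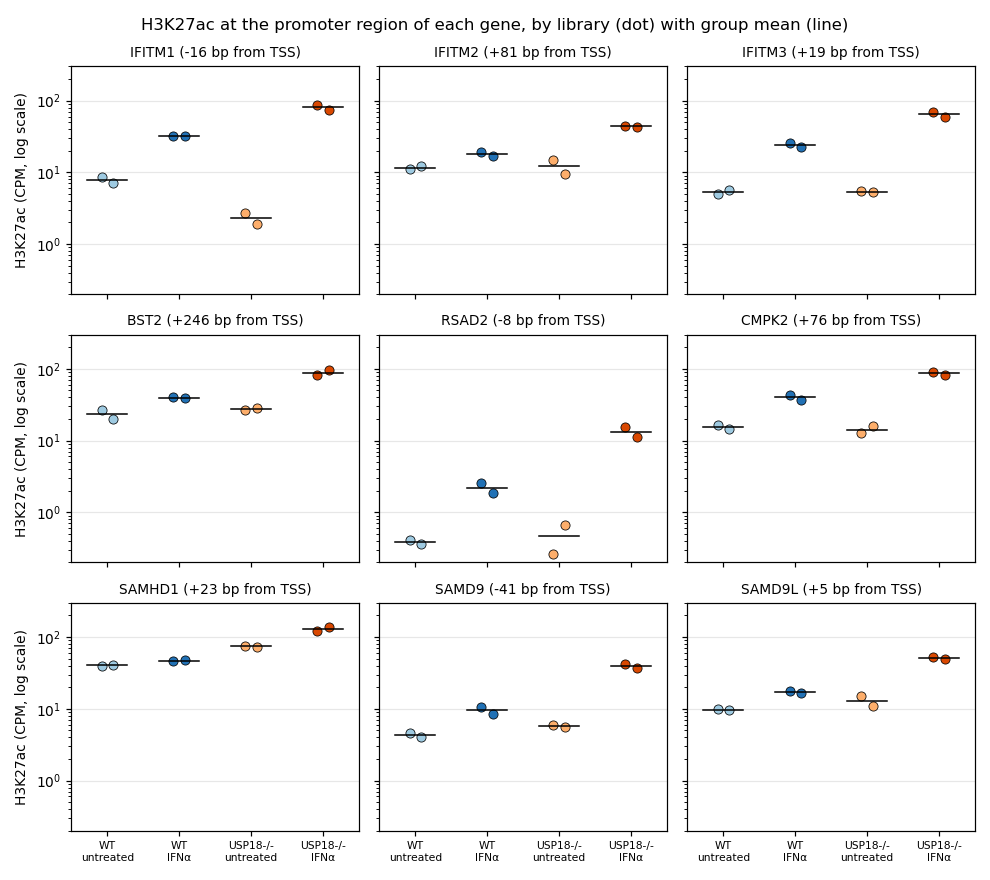
H3K27ac at the promoter region of each gene, in CPM on a log scale, by library (dots) and group mean (lines), for WT and USP18-/- cells with and without IFNα. In all 9 panels the USP18-/- libraries with IFNα are the highest, from 11.2 CPM at RSAD2 to 138 CPM at SAMHD1.

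The difference between the IFNα effects, tested as an interaction, was called above 0 (USP18-/- minus WT) at 14 of 43 regions and below 0 at 3, against 4.66% and 2.51% of all tested regions. Between the genotypes after IFNα, 20 of 43 regions were higher in USP18-/- cells, against 11.3%, and none lower, against 13.4% (edgeR QL). At an unadjusted p under 0.05, 3 were lower, and DESeq2 called none. Both the 14 and the 20 include the RSAD2 windows and those 17222 and 17594 bp upstream of SAMD9L. These windows passed the count filter only through libraries with IFNα, so both counts describe the tested regions alone. Before treatment 4 regions were higher in USP18-/- cells, against 5.66%, all distal regions of SAMHD1, and 1 was lower, against 10.8%, the IFITM1 promoter. The untreated comparison shares its libraries with both IFNα comparisons.

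The 3 IFITM genes lie side by side on chromosome 11. The IFITM1 promoter region (chr11:313475-314475, 16 bp upstream of the TSS) gave 8.57 and 7.08 CPM in untreated WT cells, 32.3 and 31.9 CPM with IFNα, 2.71 and 1.92 CPM in untreated USP18-/- cells and 86.5 and 74.6 CPM with IFNα. None of the 4 groups overlapped, and untreated USP18-/- cells were the lowest. IFNα raised this region by 2.04 in WT cells (SE 0.14, edgeR QL, BH-adjusted p = 3.2e-20) and by 5.10 in USP18-/- cells (SE 0.16, edgeR QL, BH-adjusted p = 2.1e-44), or 4.12-fold and 34.4-fold. The difference between these effects was 3.06 (SE 0.25, edgeR QL, BH-adjusted p = 1.7e-17). It was made up of a level that fell by 1.73 in untreated USP18-/- cells against WT (SE 0.22, edgeR QL, BH-adjusted p = 4.2e-10) and one that was 1.33 higher after IFNα (SE 0.11, edgeR QL, BH-adjusted p = 1.2e-18). This was the only region of the 9 genes called lower in untreated USP18-/- cells. Scaling by the sum of counts added a second one, and so did leaving out untreated USP18-/- replicate 2. Its 2 ISRE cores, printed above, lay 29 and 63 bp from the window's centre.

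The IFITM3 promoter (chr11:320395-321395) started at 5.06 and 5.72 CPM in untreated WT cells and 5.41 and 5.29 CPM in untreated USP18-/- cells. IFNα brought it to 25.5 and 22.5 CPM in WT cells and to 69.4 and 59.99 CPM in USP18-/- cells. The untreated groups overlapped, while the treated groups were apart from them and from each other. The rise was 2.15 in WT cells (SE 0.16, edgeR QL, BH-adjusted p = 9.6e-19) and 3.59 in USP18-/- cells (SE 0.14, edgeR QL, BH-adjusted p = 1.4e-37), a difference of 1.45 (SE 0.24, edgeR QL, BH-adjusted p = 1.6e-06). In this window 43.8% of all stretches of 32 bases have a copy elsewhere in hg38, as do 40.4% at IFITM2 and 14.3% at IFITM1, so reads may have been placed on a paralogue. Within 1 Mb of the IFITM genes, the 155 other tested regions had medians of -0.01 and 0.02 with IFNα in WT and USP18-/- cells, and of 0.47 between the genotypes both untreated and treated.

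At the IFITM2 promoter (chr11:307688-308688) the levels were 11.3 and 12.1 CPM in untreated WT cells, 19.4 and 16.7 CPM with IFNα, 14.7 and 9.53 CPM in untreated USP18-/- cells and 44.8 and 42.6 CPM with IFNα. Its rise in WT cells was 0.63, under the 2-fold minimum (SE 0.15, edgeR QL, BH-adjusted p = 0.018). In USP18-/- cells it rose by 1.84 (SE 0.14, edgeR QL, BH-adjusted p = 9.1e-21). The difference was 1.21 (SE 0.21, edgeR QL, BH-adjusted p = 4.7e-06), and without untreated USP18-/- replicate 2 it was 0.95 and was not called. The USP18-/- level after IFNα was 1.27 above WT, and just under the fold minimum, at 1.00, with scaling by the sum of counts.

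Upstream of IFITM3, in the intergenic stretch between 6257 and 15038 bp from its TSS, 4 regions were tested. The region 6257 bp upstream (chr11:326671-327671) held 5.79 and 4.72 CPM in untreated WT cells, 9.81 and 8.00 CPM with IFNα, 8.99 and 6.74 CPM in untreated USP18-/- cells and 49.3 and 45.2 CPM with IFNα. It rose by 2.58 in USP18-/- cells (SE 0.15, edgeR QL, BH-adjusted p = 1.2e-27) against 0.77 in WT cells (SE 0.20, edgeR QL, BH-adjusted p = 0.031), a called difference of 1.81 (SE 0.26, edgeR QL, BH-adjusted p = 3.6e-08). None of its 32-base stretches was repeated in the genome. The region 15038 bp upstream rose by 1.26 in USP18-/- cells (SE 0.22, edgeR QL, BH-adjusted p = 2.4e-06), from 3.05 and 4.62 CPM to 9.67 and 8.54 CPM, a level that WT cells with IFNα also held at 9.22 and 8.92 CPM. Without untreated USP18-/- replicate 1 its rise was 0.95 and was not called. A region 8694 bp upstream reached 2.25 CPM at most. It was called higher with IFNα in USP18-/- cells (1.13, SE 0.42, edgeR QL, BH-adjusted p = 0.039), and the call was lost under 4 of the other settings and without any of 3 single libraries, both untreated USP18-/- replicates and USP18-/- IFNα replicate 2.

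BST2 encodes tetherin. Its promoter region (chr19:17404902-17405902, 246 bp downstream of the TSS) had 27.1 and 20.2 CPM in untreated WT cells, 40.2 and 38.8 CPM with IFNα, 26.5 and 28.1 CPM in untreated USP18-/- cells and 81.2 and 95.3 CPM with IFNα. Untreated groups overlapped, and the highest WT library with IFNα stayed under the lowest USP18-/- library with IFNα. The rise was 0.75 in WT cells, below the fold minimum (SE 0.12, edgeR QL, BH-adjusted p = 5.5e-06), and 1.69 in USP18-/- cells (SE 0.11, edgeR QL, BH-adjusted p = 1.4e-24). The difference of 0.95 stayed under the fold minimum (SE 0.16, edgeR QL, BH-adjusted p = 3.4e-06), and it was called at 1.15 without untreated WT replicate 2 and at 1.02 without USP18-/- IFNα replicate 1. After IFNα, USP18-/- cells were 1.16 above WT (SE 0.10, edgeR QL, BH-adjusted p = 1.1e-16), which scaling by the sum of counts reduced to 0.88. This window overlaps that of the MVB12A promoter, so its tags cannot be assigned to one gene. In the last intron, 2211 bp from the TSS, the level was 2.44 and 1.64 CPM in untreated and 4.70 and 4.13 CPM in IFNα treated USP18-/- cells, a rise of 1.10 (SE 0.30, edgeR QL, BH-adjusted p = 0.0024) that was not called with DESeq2, with scaling by the sum of counts, or without untreated USP18-/- replicate 2 or USP18-/- IFNα replicate 1. The 2 intergenic regions beyond the gene were not called.

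RSAD2 had the lowest promoter level of the 9 genes in all 4 groups. At its TSS (chr2:6877157-6878157) the untreated WT libraries gave 0.413 and 0.363 CPM, from 4.0 and 3.5 tags, and the untreated USP18-/- libraries 0.262 and 0.674 CPM, from 2.5 and 7.0 tags. IFNα brought the region to 2.58 and 1.85 CPM in WT cells and to 15.5 and 11.2 CPM in USP18-/- cells. All 4 treated libraries were above the 4 untreated ones, and the treated genotypes did not overlap. This window passed the count filter only through the libraries with IFNα, so these had to be the higher ones. Its rises are therefore given as a description. The fitted rise was 2.48 in WT cells (SE 0.49, edgeR QL, BH-adjusted p = 0.00086) and 4.83 in USP18-/- cells (SE 0.33, edgeR QL, BH-adjusted p = 7.9e-23). With so few tags before treatment the SEs of these rises are wide. The WT call was lost without untreated WT replicate 2 (2.39) or WT IFNα replicate 1 (2.22). The difference of 2.35 passed narrowly (SE 0.80, edgeR QL, BH-adjusted p = 0.038) and was lost in 5 of the 8 fits that left out a library, those without untreated WT replicate 1 or 2, WT IFNα replicate 2, untreated USP18-/- replicate 1 or USP18-/- IFNα replicate 1.

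An overlapping window 425 bp into RSAD2, in the first exon, gave 0.413, 0.635, 2.38 and 1.64 CPM over the untreated and treated WT replicates and 0.524, 0.289, 10.8 and 10.9 CPM over those of USP18-/- cells. It rose by 1.90 in WT cells (SE 0.46, edgeR QL, BH-adjusted p = 0.016), a call lost without either untreated WT replicate or without WT IFNα replicate 1, and by 4.68 in USP18-/- cells (SE 0.34, edgeR QL, BH-adjusted p = 5.2e-21). The difference of 2.78 (SE 0.72, edgeR QL, BH-adjusted p = 0.0035) was lost without untreated WT replicate 2. This window also passed the count filter only through the libraries with IFNα, so its rises are a description as well. Farther upstream, 5042 bp from the TSS, untreated levels of at most 1.09 CPM rose in USP18-/- cells to 3.28 and 5.26 CPM, by 3.33 (SE 0.44, edgeR QL, BH-adjusted p = 9.0e-10). In WT cells treated libraries held 1.39 and 2.56 CPM and the change was not called. Without the libraries with IFNα this upstream window would not have been tested either. Here the difference of 1.99 (SE 0.70, edgeR QL, BH-adjusted p = 0.048) was lost under 3 of the other settings and in 5 of the 8 fits that left out a library, and it was 1.11 without untreated WT replicate 2.

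CMPK2 lies beside RSAD2 and is read in the opposite direction, and its promoter held more H3K27ac in every library. This region (chr2:6865243-6866243) held 16.3 and 14.7 CPM in untreated WT cells, 43.6 and 36.7 CPM with IFNα, 12.7 and 15.8 CPM in untreated USP18-/- cells and 90.8 and 82.7 CPM with IFNα. The untreated groups overlapped and the treated groups stood apart. IFNα raised it by 1.38 in WT cells (SE 0.12, edgeR QL, BH-adjusted p = 8.5e-15) and by 2.61 in USP18-/- cells (SE 0.12, edgeR QL, BH-adjusted p = 3.5e-34), a difference of 1.23 (SE 0.17, edgeR QL, BH-adjusted p = 3.6e-08). Treated USP18-/- cells were 1.11 above treated WT cells (SE 0.10, edgeR QL, BH-adjusted p = 7.7e-16). That call was lost with scaling by the sum of counts (0.83), with tag totals (0.99) and without WT IFNα replicate 2 (0.99). A region in intron 3 reached 1.03 CPM at most and was not called.

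**Figure D2:**
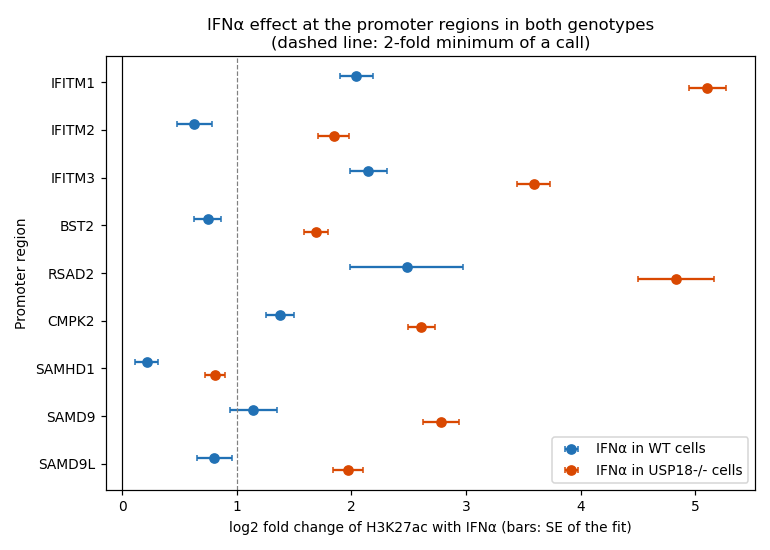
Log2 fold change of H3K27ac with IFNα at the 9 promoter regions in WT and in USP18-/- cells, with the SE of the fit as bars and the 2-fold minimum of a call as a dashed line. The estimate in USP18-/- cells is the larger for all 9 genes, from 0.81 at SAMHD1 to 5.10 at IFITM1, while WT estimates run from 0.21 to 2.48.

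SAMD9 and SAMD9L, next to each other on chromosome 7, both changed more in USP18-/- cells. The SAMD9 promoter (chr7:93117564-93118564) gave 4.55 and 4.08 CPM in untreated WT cells, 10.5 and 8.51 CPM with IFNα, 5.93 and 5.58 CPM in untreated USP18-/- cells and 42.2 and 37.4 CPM with IFNα. Its rise was 1.14 in WT cells (SE 0.20, edgeR QL, BH-adjusted p = 1.0e-04) and was 0.98 and not called without WT IFNα replicate 1. In USP18-/- cells the rise was 2.79 (SE 0.16, edgeR QL, BH-adjusted p = 6.5e-28), and the difference was 1.64 (SE 0.27, edgeR QL, BH-adjusted p = 1.8e-06). After IFNα the genotypes were 2.06 apart (SE 0.15, edgeR QL, BH-adjusted p = 5.4e-22).

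At the SAMD9L promoter (chr7:93147894-93148894) the levels were 9.81 and 9.62 CPM in untreated WT cells, 17.5 and 16.4 CPM with IFNα, 15.2 and 10.9 CPM in untreated USP18-/- cells and 53.5 and 49.0 CPM with IFNα. The WT rise of 0.81 did not reach the fold minimum (SE 0.16, edgeR QL, BH-adjusted p = 0.00056), and the USP18-/- rise was 1.97 (SE 0.13, edgeR QL, BH-adjusted p = 1.2e-23). A difference of 1.16 (SE 0.21, edgeR QL, BH-adjusted p = 9.4e-06) became 0.95 and was not called without untreated USP18-/- replicate 2. The overlapping window 800 bp downstream, in intron 1, held an ISRE core 64 bp from its centre and had larger estimates in both genotypes, a contrast between windows that was not tested. There the levels were 5.27 and 3.45 CPM in untreated and 12.1 and 10.6 CPM in treated WT cells, and 4.97 and 5.20 CPM in untreated and 39.8 and 46.9 CPM in treated USP18-/- cells. The rises were 1.39 (SE 0.20, edgeR QL, BH-adjusted p = 4.4e-07) and 3.09 (SE 0.16, edgeR QL, BH-adjusted p = 4.5e-30), which differed by 1.70 (SE 0.27, edgeR QL, BH-adjusted p = 1.2e-06).

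The largest difference in IFNα response among the tested regions of the 9 genes was not at a promoter. It lay in an intergenic region 17222 bp upstream of SAMD9L (chr7:93165121-93166121). Replicates 1 and 2 gave 0.620 and 0.635 CPM in untreated WT cells, 0.694 and 0.923 CPM with IFNα, 0.349 and 0.770 CPM in untreated USP18-/- cells and 13.05 and 12.0 CPM with IFNα. The USP18-/- libraries with IFNα held 147.0 and 127.5 tags, and no other library held over 9.0 tags. The region therefore passed the count filter only through the group where it is high, so that it had to differ, and its values are given as a description. With IFNα the log2 change was 4.48 in USP18-/- cells, or 22.3-fold (SE 0.32). In WT cells it was 0.36 (SE 0.54), and the difference was 4.13 (SE 0.72). Without either treated USP18-/- library the region had too few counts to be tested. A second window that overlaps it, 17594 bp upstream, gave 9.94 and 11.1 CPM in the treated USP18-/- libraries and at most 0.923 CPM elsewhere, with a difference of 3.77 (SE 0.67), and it passed the filter in the same way. Of the 32-base stretches in the first window 1.55% were repeated in the genome. Its ISRE core, printed above, lay 298 bp from the centre.

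Closer to SAMD9L, 2254 bp upstream, the treated USP18-/- libraries held 5.15 and 6.95 CPM and the other libraries at most 2.36 CPM. The rise there was 1.65 in USP18-/- cells (SE 0.29, edgeR QL, BH-adjusted p = 2.1e-06) and 0.06 in WT cells (SE 0.39, edgeR QL, BH-adjusted p = 0.99). A difference of 1.59 (SE 0.49, edgeR QL, BH-adjusted p = 0.019) was lost with DESeq2 and in 5 of the 8 fits that left out a library. The 4 other tested SAMD9L regions were called in none of the comparisons and reached 3.004 CPM at most, among them the one 8759 bp upstream, which held 2 ISRE cores. Within 1 Mb of SAMD9 and SAMD9L, the 77 other tested regions had a median of 0.69 between the treated genotypes and of 0.30 for the difference of IFNα effects, and 79.2% of them had a difference above 0.

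**Figure D3:**
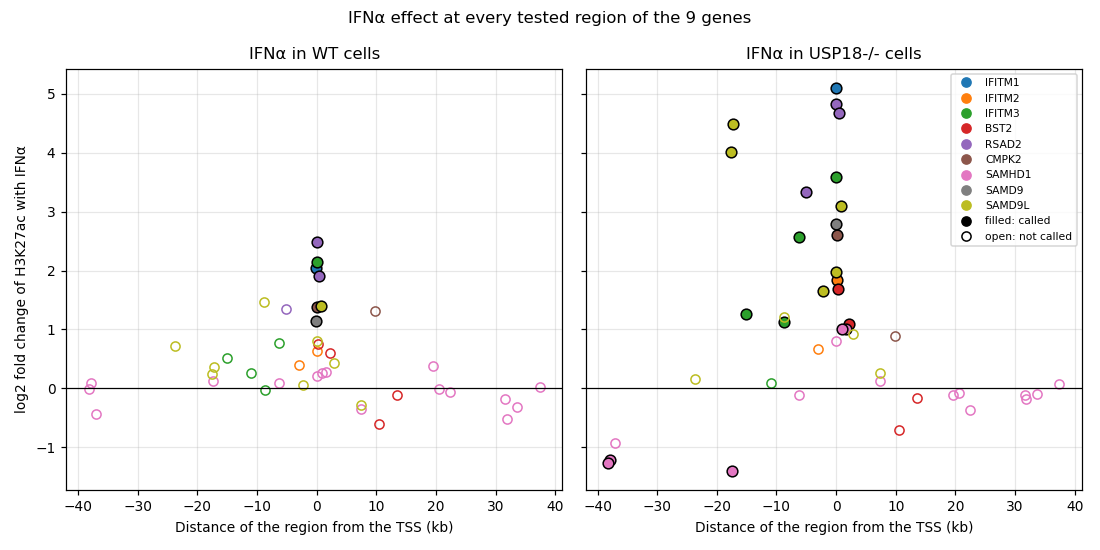
Log2 fold change of H3K27ac with IFNα at each tested region of the 9 genes against its distance from the TSS in kb, in WT (left) and USP18-/- cells (right). Filled dots are called regions, which lie at the TSS in WT cells and also away from it in USP18-/- cells, with SAMD9L regions at 4.48 and 4.01 and 3 SAMHD1 regions below -1.

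SAMHD1, the deoxynucleotide hydrolase, had the most regions of the 9 genes. Its promoter (chr20:36951320-36952320) was the highest of the 9 in every group, with 39.6 and 41.3 CPM in untreated WT cells, 46.1 and 47.8 CPM with IFNα, 74.7 and 73.1 CPM in untreated USP18-/- cells and 120 and 138 CPM with IFNα. The genotypes were already apart before treatment, by 0.87 (SE 0.10, edgeR QL, BH-adjusted p = 1.2e-12), and after IFNα by 1.46 (SE 0.09, edgeR QL, BH-adjusted p = 4.6e-25). IFNα changed it by 0.21 in WT cells, which did not pass (SE 0.10, edgeR QL, BH-adjusted p = 0.49), and by 0.81 in USP18-/- cells, under the 2-fold minimum (SE 0.09, edgeR QL, BH-adjusted p = 9.1e-13). It was the only one of the 9 promoters not called in USP18-/- cells with IFNα. Between the genotypes after IFNα, all 9 promoters were called higher in USP18-/- cells, and scaling by the sum of counts left IFITM2, BST2 and CMPK2 out.

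The strongest H3K27ac of any region of the 9 genes lay in intron 1 of SAMHD1, 990 bp from the TSS (chr20:36950353-36951353). It held 66.7 and 61.2 CPM in untreated WT cells, 78.1 and 75.3 CPM with IFNα, 105 and 108 CPM in untreated USP18-/- cells and 209 and 217 CPM with IFNα. The groups did not overlap. In USP18-/- cells IFNα raised it by 1.01 (SE 0.08, edgeR QL, BH-adjusted p = 2.7e-19), or 2.01-fold, and the overlapping window 1619 bp from the TSS by 1.00 (SE 0.09, edgeR QL, BH-adjusted p = 8.8e-16). Both values sit at the fold minimum. Each of the scalings by the sum of counts and by tag totals, DESeq2 and a fit without the count filter put both below it, at 0.87 to 1.00, as did leaving out untreated USP18-/- replicate 1 (0.96 and 0.87), USP18-/- IFNα replicate 2 for the first window (0.98) and replicate 1 for the second (0.95). The window at 990 bp holds an ISRE core 27 bp from its centre.

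Upstream of SAMHD1 the pattern turned over. The overlapping regions 37876 and 38170 bp upstream were high in untreated USP18-/- cells and fell with IFNα. At 37876 bp (chr20:36989219-36990219) the levels were 13.8 and 15.2 CPM in untreated WT cells, 14.7 and 16.4 CPM with IFNα, 42.2 and 44.7 CPM in untreated USP18-/- cells and 20.0 and 17.3 CPM with IFNα. Before treatment this region was 1.57 higher in USP18-/- cells (SE 0.13, edgeR QL, BH-adjusted p = 2.1e-18). In USP18-/- cells it fell by 1.22 with IFNα (SE 0.12, edgeR QL, BH-adjusted p = 3.2e-14), to within 0.26 of WT cells with IFNα (SE 0.14, edgeR QL, BH-adjusted p = 0.13). In WT cells the change was 0.09 (SE 0.15, edgeR QL, BH-adjusted p = 0.92). The difference of the IFNα effects was -1.31 (SE 0.19, edgeR QL, BH-adjusted p = 7.8e-08). The window 38170 bp upstream fell by 1.27 and had a difference of -1.26 (SE 0.19, edgeR QL, BH-adjusted p = 3.1e-07).

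Another window, 37046 bp upstream, which overlaps the one at 37876 bp, held 22.8 and 31.2 CPM in untreated USP18-/- cells against 9.50 and 9.62 CPM in untreated WT cells, a difference of 1.49 (SE 0.16, edgeR QL, BH-adjusted p = 2.5e-13). With IFNα it gave 13.6 and 14.7 CPM in USP18-/- cells and 6.05 and 8.10 CPM in WT cells. Its change in USP18-/- cells, -0.93, stayed under the fold minimum (SE 0.15, edgeR QL, BH-adjusted p = 1.9e-07) and was called at -1.06 with scaling by the sum of counts and at -1.17 without untreated USP18-/- replicate 1. Between the treated genotypes its value was 1.00, and that call was lost with both other scalings (0.73 and 0.88) and without untreated WT replicate 2 (1.00), WT IFNα replicate 1 (0.80), untreated USP18-/- replicate 1 (0.97) or USP18-/- IFNα replicate 2 (0.95). The region 17407 bp upstream, singled out after its values were seen, was also lowered by IFNα in USP18-/- cells, from 19.8 and 21.8 CPM to 7.19 and 8.64 CPM. In WT cells it held 11.4 and 16.2 CPM untreated and 15.5 and 14.8 CPM treated. Its IFNα effects differed by -1.52 between the genotypes (SE 0.23, edgeR QL, BH-adjusted p = 1.9e-07). By contrast, the region 6253 bp upstream held between 48.9 CPM and 64.2 CPM in all 8 libraries and was called in no comparison.

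**Figure D4:**
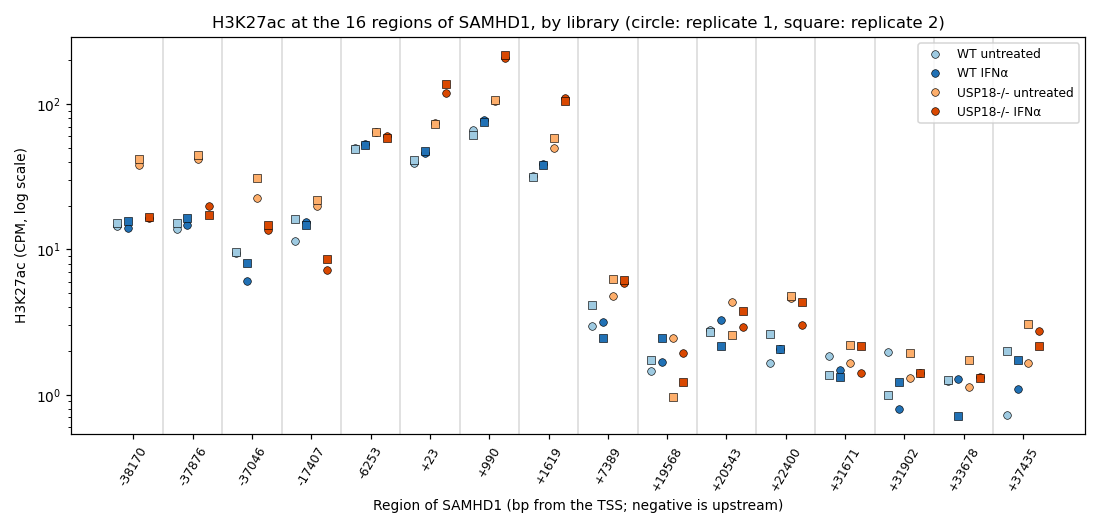
H3K27ac in CPM on a log scale at the 16 regions of SAMHD1, ordered by distance from the TSS in bp, by library and group. The USP18-/- libraries with IFNα are highest between +23 and +1619 bp, up to 217 CPM, while at -37876 and -38170 bp the untreated USP18-/- libraries are highest, at 38.1 CPM or more.

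Within the gene, 8 regions between 7389 and 37435 bp downstream of the TSS reached 6.26 CPM at most. The one at 22400 bp was called higher in untreated USP18-/- cells, at 4.63 and 4.81 CPM against 1.65 and 2.63 CPM (1.12, SE 0.29, edgeR QL, BH-adjusted p = 0.0012), and the one at 7389 bp higher after IFNα (1.09, SE 0.26, edgeR QL, BH-adjusted p = 0.00028). Untreated USP18-/- cells had a fitted level above WT at all 16 SAMHD1 regions, with a median of 0.67. Scaling by the sum of counts shifts that comparison by -0.14 at the median of all regions. Of the 161 other tested regions within 1 Mb, 69.6% were above 0 as well, with a median of 0.29. The part of this shared level in the SAMHD1 values was not tested.

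Before treatment, the order of the 9 promoters in WT cells was SAMHD1, BST2, CMPK2, IFITM2, SAMD9L, IFITM1, IFITM3, SAMD9 and RSAD2, with means from 40.4 to 0.388 CPM and no overlap between neighbours in that order. In untreated USP18-/- cells IFITM1 stood in the eighth place, at 2.32 CPM, and the ranges of CMPK2, SAMD9L and IFITM2 overlapped. With IFNα in WT cells SAMHD1 led at 46.9 CPM, CMPK2 and BST2 followed with overlapping ranges at 40.2 and 39.5 CPM, and IFITM1 was the fourth at 32.1 CPM. With IFNα in USP18-/- cells SAMHD1 stayed first at 129 CPM, and BST2, CMPK2 and IFITM1 followed at 88.3, 86.8 and 80.6 CPM with overlapping ranges between neighbours. RSAD2 remained last at 13.4 CPM. Repeated sequence at the IFITM promoters and the overlap of the BST2 window with that of MVB12A were not corrected for in these orders.

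Likeness of pattern was measured as the Euclidean distance between promoters over the 8 libraries, on log2(CPM + 0.5) values centred on each gene's mean, among 13067 genes. The promoter nearest to IFITM3 was that of OAS2, at 0.43, against a median distance of 4.11 over all genes. RSAD2 was nearest to OASL at 0.74, CMPK2 to EIF2AK2 at 0.44, SAMD9 to OAS1 at 0.44 and SAMD9L to PLSCR1 at 0.30. For IFITM1 the nearest was IFI16 at 1.52, against a median of 5.32. BST2 was nearest to MVB12A at 0.28, whose window overlaps its own. IFITM2 was nearest to AGBL2 at 0.42. The promoter nearest to SAMHD1 was SPATA1 at 0.25, against a median of 1.55.

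Other antiviral genes were counted by their promoter region. A list of 36 such genes gave 35 promoters. IFNα raised 20 of them in WT cells and 24 in USP18-/- cells and lowered none (edgeR QL), against 5 and 8 of the 9 promoters described here. Over all tested regions 0.344% and 7.14% were called higher. Medians were 1.15 and 2.46 over the list and 1.14 and 2.61 over the 9. The difference of IFNα effects was called higher in USP18-/- cells at 22 of the 35 and at 7 of the 9, against 4.66% of all tested regions. MX1, a GTPase that blocks viral nucleocapsids, was the only promoter of the list called lower in that comparison, at -2.29; its window rose by 2.93 in WT cells and by 0.64, not called, in USP18-/- cells. IFI44L had the largest rise of the list in USP18-/- cells, 6.28, above the 5.10 of IFITM1. The IFI44L window would not have been tested without the libraries with IFNα, so its rise is a description. OAS2 and MX2 rose by 3.92 and 3.94, next to 3.59 at IFITM3.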

How the data were processed

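H3K27ac ChIP-seq was measured in 8 THP-1 libraries. Per the submitters' processing notes and the study's methods, the authors aligned read pairs with Bowtie2 (hg38), made tag directories with HOMER and annotated merged ATAC-seq peaks. The authors deposited raw tags per 1000 bp window, in steps of 0.5 and not normalized, here called expected counts. Of the values 52.2% were whole, and the rest were rounded to whole counts. No value column was left unmapped. Input and ATAC-seq data were not used here.

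Regions reaching 10 counts in 2 or more of the 8 libraries were tested with edgeR 4.0.16 (limma 3.58.1, R 4.3.3). TMM scaling, 1 mean per group, the quasi-likelihood test and Benjamini-Hochberg adjustment over 123276 regions were used. Calls needed an adjusted p under 0.05 and a log2 change over 1 in size. The SE was the log2 change divided by the root of the F statistic. The shared biological coefficient of variation came to 0.0737. Rounded counts per library started at 9082433, so regions with few tags carry wide errors. Levels are CPM after TMM.

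The members and all lists were chosen with earlier results of these data known. For each gene, the rule named the tested region nearest to the TSS, the one with the highest mean and up to 4 further called regions by smallest adjusted p, 24 in all, and any other region in the text was named after its values were seen. Motifs were searched on both strands of hg38 with pysam 0.24.0 in Python 3.11.15, and repeated stretches of 32 bases were counted on the chromosomes 1 to 22, X and Y. Results for 1 further motif are not given. The edgeR fit and the ISRE search were tested on simulated data. Alternatives were scaling by the sum of counts or by tag totals, DESeq2 1.42.0, no count filter, no fold minimum, a replicate block, leaving out each library, a single window for each chain of overlapping ones and, added after seeing the data, unrounded values.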

Additional observations from a re-analysis of the deposited data

Results flagged for a closer look

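At 16 of the 24 named regions the IFNα effect differed between USP18-/- and WT cells by the interaction contrast of the edgeR fit, past the same thresholds as the other calls. The difference (USP18-/- minus WT) was above 0 at 14 of these regions and below 0 at 2. Many regions were named because they had been called, in this comparison among others, so these counts are no result about the genes. Over all 43 tested regions 14 were called above 0 and 3 below 0, against 4.66% and 2.51% of all tested regions. The region 17407 bp upstream of SAMHD1, at -1.52, was below 0 too and was not a named region. Log2 differences at promoters were 3.06 at IFITM1, 2.35 at RSAD2, 1.64 at SAMD9, 1.45 at IFITM3, 1.23 at CMPK2, 1.21 at IFITM2 and 1.16 at SAMD9L. In the first exon of RSAD2, 425 bp from the TSS, the difference was 2.78, and in intron 1 of SAMD9L, 800 bp from the TSS, it was 1.70. Upstream regions of SAMD9L differed by 4.13 at 17222 bp, by 3.77 at 17594 bp and by 1.59 at 2254 bp. The region 6257 bp upstream of IFITM3 differed by 1.81 and the one 5042 bp upstream of RSAD2 by 1.99. The named regions with differences below 0 lay 37876 and 38170 bp upstream of SAMHD1, at -1.31 and -1.26. H3K27ac fell there in USP18-/- cells, and the log2 changes in WT cells were 0.09 and -0.01. The SAMD9L regions at 17222 and 17594 bp were tested only because the treated USP18-/- libraries are high there. The RSAD2 regions were tested only because the libraries with IFNα are high there.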

How the results depend on the processing

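Across 24 named regions and the 5 comparisons, 1575 log2 fold changes from the alternatives kept their side of the thresholds, 68 lost a call, 8 gained one and none reversed; signs of uncalled values were not compared. For counts, dropping the fold minimum gave 11 higher regions with IFNα in WT cells (7 with it). Between untreated genotypes it gave 11 higher and 3 lower (4 and 1 with it), and between treated genotypes 3 lower (0 with it). Scaling by the sum of counts gave 2 lower in untreated and 2 lower in treated cells, and tag totals 2 lower in treated cells. Keeping 1 window per chain of overlapping windows left 2 higher in untreated cells. Leaving out 1 library at a time gave 4 to 7 higher with IFNα in WT cells and 16 to 20 in USP18-/- cells, 16 to 20 higher between treated genotypes, 10 to 12 higher for the difference (14 with all libraries), 1 to 2 lower between untreated and 0 to 2 lower between treated genotypes, with 2 without USP18-/- IFNα replicate 2. Scaling by the sum of counts moved the median of all regions by -0.13 for IFNα in USP18-/- cells, -0.14 and -0.27 between untreated and treated genotypes and -0.13 for the difference. Over all regions, higher and lower calls became 8789 and 24065 between treated genotypes (13913 and 16511 with TMM), 4974 and 16879 between untreated ones (6983 and 13289), 7461 and 7882 with IFNα in USP18-/- cells (8797 and 5278) and 4677 and 4762 for the difference (5743 and 3093). With the replicate block all 120 values kept their side. Libraries with the same number deviated with correlations r from -0.003 to 0.046, so no pairing by number was seen. With 2 libraries in each group this cannot tell whether libraries with the same number were handled together. Unrounded values changed no call. The SAMD9L regions 17222 and 17594 bp upstream could not be tested without either treated USP18-/- library, and DESeq2 gave no adjusted p for 9 values, among them the difference at RSAD2 5042 bp upstream. The smallest regions, at a few tags before treatment, limit what depth can show.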

Other observations

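Regions of other genes that lie within 50000 bp of these windows numbered 55, and 50 were tested. IFNα raised 1 of the 50 in WT cells, against 0.344% of all tested regions. In USP18-/- cells it raised 7, against 7.14%, and lowered 1, against 4.28% (edgeR QL test). At the IFITM locus, 3 intergenic regions annotated to B4GALNT4, a glycosyltransferase gene, rose together in USP18-/- cells. They lay at -18783, -15178 and -13514 bp from its TSS and changed by 2.12, 2.92 and 2.76, against 0.84, 0.74 and 1.55 in WT cells, where only the last was called. Next to RSAD2 and CMPK2, regions of the noncoding RNA gene NRIR, at 7281 and -6707 bp from its TSS, rose by 2.36 and 1.91 in USP18-/- cells. These windows were counted without strand. At BST2, the MVB12A promoter window, which overlaps that of BST2, rose by 1.80. The RNF144A region 12273 bp from its TSS rose by 1.40. The PLVAP region at -13886 bp from its TSS fell by 1.03. Around SAMHD1, none of the 7 tested neighbours was called with IFNα in either genotype.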
